A study of Rattus norvegicus with 12 samples.

Results

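The baseline miRNA profile of the normal fetal rat lumbosacral spinal cord was described from 3 small RNA libraries, those titled normal replicates 4, 5 and 6, of the 12 libraries in the series. They were prepared from total RNA of the lumbosacral cord of Wistar rats of normal phenotype on embryonic day 17. The series as a whole compares such cords with cords of fetuses that had anorectal malformations induced with ethylenethiourea (ETU), in 6 lncRNA and 6 miRNA libraries, and no such comparison is made here. The labels name no treatment of the normal fetuses, no sex and no litter, and do not say whether fetuses were pooled, so the spread given below is the spread between these 3 libraries and may be technical. The table lists 846 miRNAs, of which 753 bear a catalogue name of the rat (written here without its species prefix) and 93 are numbered predictions.

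A miRNA is cut from a hairpin precursor, whose 5′ and 3′ arms (5p and 3p) can each give a mature strand of similar length. The mature strand guides silencing proteins to messenger RNAs that pair mainly with its seed, the bases next to its 5′ end, so miRNAs that share a seed are grouped as a family. Developing spinal cord is known for miR-9 in its progenitors, miR-124 in its neurons, miR-218 in its motor neurons and the miR-10 and miR-196 families, which are encoded inside the Hox clusters that pattern the trunk.

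The sequences that carried most of the counts are shown first. Each is the mature RNA from RefSeq (GRCr8 annotation), 5′ to 3′, with the seed (bases 2 to 8) in capitals. The first set holds the markers of the profile, miR-9a-5p, miR-10a-5p and miR-218a-5p. miR-10b-5p stands beside miR-10a-5p because their reference entries have nearly the same bases and different seeds.
miR-9a-5p: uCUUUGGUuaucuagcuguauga
miR-10a-5p: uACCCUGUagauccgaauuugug
miR-10b-5p: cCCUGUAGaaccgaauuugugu
miR-218a-5p: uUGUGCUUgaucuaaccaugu

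Aligned to start at base 3 of miR-10a-5p, miR-10b-5p differs from it over the shared bases by 1 substitution, U12A, counted from the 5′ end of miR-10a-5p. The shift by 2 bases places other letters in the seed, ACCCUGU in miR-10a-5p and CCUGUAG in miR-10b-5p. These seeds are read from the reference entries, and the 5′ ends of the reads were not examined. The table of reference sequences holds 3 copies of miR-9a-5p, 1 of them on chromosome 1 at 142849415 to 142849437 (plus strand), 1 copy of miR-10a-5p on chromosome 10 at 81779730 to 81779752 (plus strand), 1 copy of miR-10b-5p on chromosome 3 at 80035886 to 80035907 (plus strand) and 2 copies of miR-218a-5p, 1 of them on chromosome 10 at 20572547 to 20572567 (plus strand). Reads of a mature miRNA with several identical copies cannot be assigned to 1 hairpin.

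The second set holds the families whose members shared the counts, let-7, miR-125, miR-100/99b and miR-181, and the imprinted miR-127-3p.
let-7i-5p: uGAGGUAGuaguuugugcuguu
let-7c-5p: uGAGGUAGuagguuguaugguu
let-7g-5p: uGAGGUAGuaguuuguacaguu
let-7b-5p: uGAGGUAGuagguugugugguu
let-7a-5p: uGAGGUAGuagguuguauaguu
let-7f-5p: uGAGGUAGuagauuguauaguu
let-7e-5p: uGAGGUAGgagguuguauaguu
let-7d-5p: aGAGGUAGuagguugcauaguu
miR-125b-5p: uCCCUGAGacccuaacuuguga
miR-125a-5p: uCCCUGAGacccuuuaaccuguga
miR-351-5p: uCCCUGAGgagcccuuugagccuga
miR-100-5p: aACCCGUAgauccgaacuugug
miR-99b-5p: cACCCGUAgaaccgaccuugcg
miR-181a-5p: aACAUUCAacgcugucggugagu
miR-181d-5p: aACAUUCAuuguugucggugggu
miR-181b-5p: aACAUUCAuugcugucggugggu
miR-181c-5p: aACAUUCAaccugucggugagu
miR-127-3p: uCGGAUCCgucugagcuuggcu

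The libraries held 11526673, 12856194 and 12317421 counts in libraries 4, 5 and 6. Levels are CPM, the count per 1000000 counts of the library over all rows, and an error is the SD over the 3 libraries. A row at 0 allows at most 0.260, 0.233 and 0.244 CPM in libraries 4, 5 and 6 (3 counts), a limit that covers counting error only. In each library 625, 628 and 627 rows had a count. No library was a copy of another, since the counts of each pair differed by far more than sampling noise, with a chi-square of 80.2 per degree of freedom for libraries 4 and 5, 72.4 for 4 and 6, and 33.8 for 5 and 6. In tissue RNA, fewer cells of a type and less RNA per cell cannot be told apart. No added RNA of known amount was used here, so levels are shares of the counted miRNA. How evenly different sequences were captured was not tested, so ratios between miRNAs or arms are ratios of counts.

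The profile was led by 1 miRNA. miR-9a-5p, which is known in neural precursors and their neurogenesis, had 313985, 322895 and 319536 CPM in libraries 4, 5 and 6, a mean of 318805 ± 4499.6. It made up 31.9 ± 0.450% of the counts, was first in every library and had a coefficient of variation (CV, the SD as a percent of the mean) of 1.41%. miR-10a-5p, encoded in the HoxB cluster, followed with 101085, 106232 and 105950.0 CPM (104422 ± 2894). miR-99a-5p, whose hairpin lies beside that of let-7c, had 90443, 89208 and 95830.2 CPM (91827 ± 3521). The log2 ratio of miR-9a-5p over miR-10a-5p was 1.61 ± 0.02, and that of miR-10a-5p over miR-99a-5p was 0.19 ± 0.06, positive in each library.

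Few miRNAs held most of the counts. The 3 most abundant miRNAs held 51.5 ± 0.840% of the counts, the 10 most abundant 68.8 ± 0.554% (68.4%, 68.6% and 69.5% in libraries 4, 5 and 6), the 20 most abundant 79.4 ± 0.437%, and the 100 most abundant 96.5 ± 0.0953%. The point of 90% was passed at rank 46 and that of 99% at rank 165. At the other end, 174 rows had no count in any of the 3 libraries, 580 had a count in each, and 92 had a count in some libraries only, none of these with a mean above 1.73 CPM. At or above 10 CPM in every library were 332 rows, 331 of them with a catalogue name. By mean level, 72 miRNAs reached 1000 CPM, 120 lay between 100 and 1000, and 146 between 10 and 100 CPM.

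**Figure D1:**
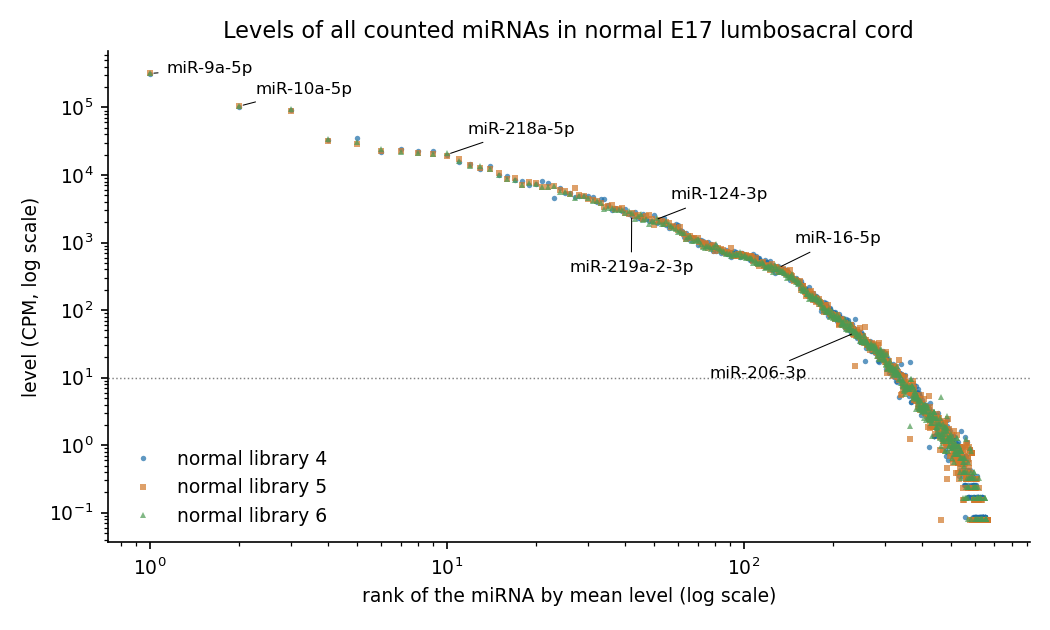
Level in CPM (log scale) against rank by mean level (log scale) for every miRNA with a count, 1 point per library (normal libraries 4, 5 and 6), with the dotted line at 10 CPM. The points of the 3 libraries overlap at high ranks, where miR-9a-5p stands at 318805 CPM and miR-10a-5p at 104422, and fan out below 10 CPM.

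The next 7 miRNAs formed a narrow band. let-7i-5p, of the family that accumulates as cells differentiate, had 32931, 31848 and 33569.8 CPM in libraries 4, 5 and 6, and miR-125b-5p, a mammalian relative of the worm lin-4 RNA, had 34945, 29171 and 30612. These were in opposite order in library 4, and their log2 ratio of 0.06 ± 0.12 was within the spread between libraries. Further down the band, miR-100-5p averaged 23067 ± 1079.7 CPM, miR-127-3p 22956 ± 1159, miR-10b-5p 21642 ± 618, let-7c-5p 21257 ± 1252 and miR-218a-5p 20019 ± 962. The same 10 miRNAs filled ranks 1 to 10 in every library, but inside the band the order changed. miR-100-5p and miR-127-3p differed by a log2 ratio of 0.01 ± 0.14, and miR-10b-5p and let-7c-5p by 0.03 ± 0.04, with 2 of the 3 libraries in the order of the means in both cases.

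miR-218a-5p, the marker of spinal motor neurons, encoded in introns of Slit2 and Slit3, had 19710.0, 19249 and 21097 CPM in libraries 4, 5 and 6 and rank 10. All 3 markers of the profile were thus among the 10 most abundant miRNAs in every library. They were chosen with earlier results of these data known, so their ranks are no independent check of the labelled tissue. Ranks 11 to 20 were held by miR-7a-5p, enriched in neurons and in endocrine cells (16152 ± 760.2 CPM), let-7g-5p (14113 ± 409), miR-99b-5p (12774 ± 691), miR-181a-5p (12749 ± 779), miR-126a-3p of endothelium (10218 ± 279), miR-26a-5p (8929.5 ± 528), miR-143-3p of smooth muscle (8608 ± 439.5), miR-125a-5p (7521 ± 632), miR-148a-3p (7493 ± 357) and miR-103-3p (7402 ± 164). Over the 20 miRNAs, 11 of the 19 neighbouring pairs kept their order in all 3 libraries with a mean gap above its SD, and 18 miRNAs stood among the 20 most abundant of every library. Just below, miR-128-3p, a neuronal miRNA, had 8024 CPM in library 4 against 6612 and 6651 in libraries 5 and 6.

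**Figure D2:**
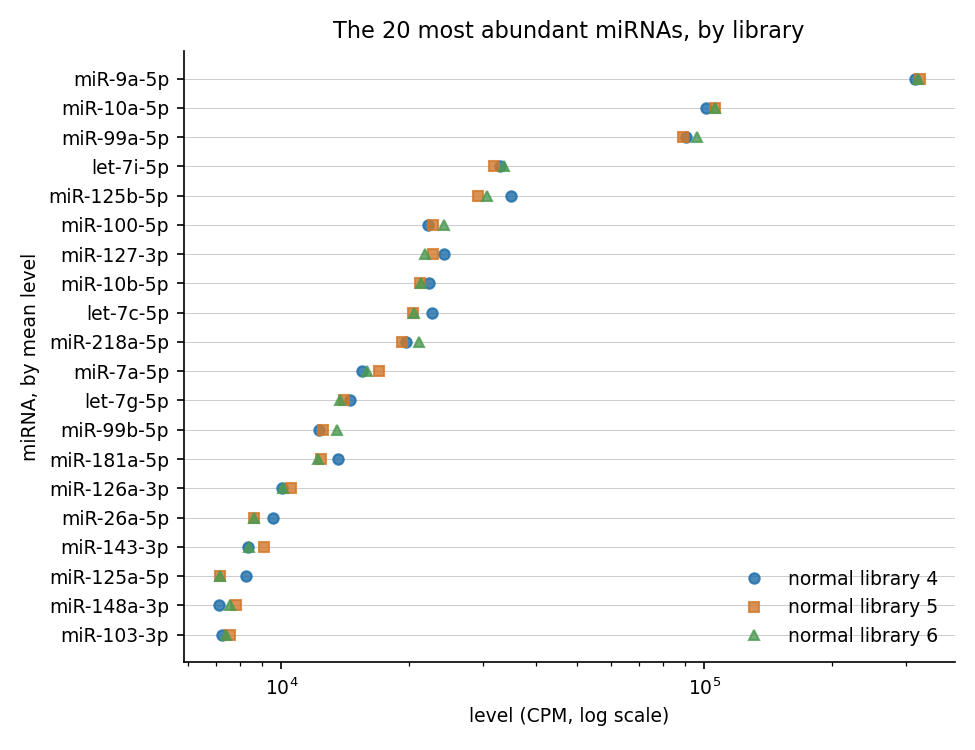
Level in CPM (log scale) of the 20 most abundant miRNAs, 1 point per normal library. The step from miR-99a-5p (91827 CPM) to let-7i-5p (32783) is wider than any spread between libraries, while neighbours such as miR-100-5p and miR-127-3p overlap.

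By seed, 687 of the 753 catalogue rows had a reference sequence, and these held 89.1% of the counts. They fell into 581 seeds, of which 71 were shared by at least 2 rows. The largest family by counts was a single miRNA: CUUUGGU, that of miR-9a-5p, held 31.9 ± 0.450% of the counts. ACCCUGU, that of miR-10a-5p, held 10.4 ± 0.289%. GAGGUAG, the seed of let-7, came next with 8.49%, 7.98% and 8.15% in libraries 4, 5 and 6, a mean of 8.21 ± 0.261%. Among the rows with a sequence, it was the first family in which several members shared the counts.

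The let-7 sequences above differ only outside the seed or at base 1. let-7i-5p gave 39.9% of the family's counts, let-7c-5p followed at 21257 CPM and let-7g-5p at 14113. Relative to let-7i-5p, let-7c-5p carries U12G, G17A, C18U and U19G, and let-7g-5p carries G17A and U19A, with positions counted from 1 at the 5′ end. The remaining members were lower, with let-7b-5p at 4652 ± 249.6 CPM, let-7a-5p at 4037 ± 269, let-7f-5p at 3107 ± 91.5, let-7e-5p at 1434 ± 53.6 and let-7d-5p at 679.9 ± 63.4. All 8 were above 100 CPM. The other row with this seed, miR-98-5p, had 0 counts in all 3 libraries.

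Several of these members are 1 base apart, and the sources used here do not say how reads with a mismatch were assigned. let-7c-5p and let-7b-5p differ by A17G and had 21257 and 4652 CPM. let-7c-5p and let-7a-5p differ by G19A, with let-7a-5p at 4037 CPM. Among the 312 miRNAs with a sequence and a mean of at least 10 CPM there were 16 such pairs. The levels of some pairs were far apart. miR-7a-5p had 16152 CPM and miR-7b, which differs by A10U, 920.7. miR-27b-3p had 6102 CPM and miR-27a-3p (U19C) 154. miR-196a-5p had 1584 CPM, miR-196b-5p (A12C) 321 and miR-196c-5p (A12G) 33.5.

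Among the rows with a sequence, the other large families had 1 dominant member each. CCCUGAG held 3.95 ± 0.365% of the counts, 79.9% of them from miR-125b-5p, with miR-125a-5p at 7521 CPM and miR-351-5p at 418 ± 46.4. ACCCGUA (3.58 ± 0.177%) was led by miR-100-5p with 64.4%, the rest being miR-99b-5p. miR-99a-5p, at rank 3, is not counted in this family because it had no entry in the sequence table. Its level of 91827 CPM was above the 23067 of miR-100-5p. The share, leader and place of this family therefore hold only for rows with a sequence. ACAUUCA, the miR-181 seed, held 2.16 ± 0.101%, with miR-181a-5p at 12749 CPM, miR-181d-5p at 5262 ± 83.9, miR-181b-5p at 3413 ± 162 and miR-181c-5p at 151 ± 9.24. CGGAUCC of miR-127-3p (2.30 ± 0.116%) and CCUGUAG of miR-10b-5p (2.16 ± 0.0618%) were single miRNAs by their reference sequences. The 8 largest families together held 64.7% of the counts and the 20 largest 77.1%. Among the rows with a sequence, 20 families had at least 2 members above 100 CPM. In 18 of these the leading member had over 50% of the family's counts, and in 4 it had over 90%. These values leave out members without a sequence. The family led by miR-30c-5p (6088 CPM), for one, lacks miR-30d-5p (5589 CPM), which had no entry in the sequence table.

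The 312 miRNAs with a sequence and a mean of at least 10 CPM were compared by their letters. Shares of counts in this paragraph are of the counts of these 312 and leave out the rows without a sequence, among them miR-99a-5p at rank 3. A first base of U was found in 126 of the sequences (40.4%), which held 81.7 ± 0.219% of these counts. Without miR-9a-5p, which starts with U, the share was 71.5 ± 0.128%. A came first in 31.1% of the sequences and 10.6 ± 0.179% of these counts, C in 19.9% and 6.85 ± 0.0497%, and G in 8.65% and 0.808 ± 0.00987%. A length of 22 bases was the commonest by sequence (52.6%), and 23 bases by these counts (56.4 ± 0.809%). Without miR-9a-5p, sequences of 23 bases held 32.1 ± 0.713% of these counts and those of 22 bases 51.6 ± 0.837%.

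Both arms were listed for 299 hairpins, and 236 had at least 10 counts over the arms in each library. The 5p arm was the higher one in 124 of these, 52.5 ± 0.882%. The same arm was higher in all 3 libraries for 225 hairpins, and it differed among libraries for 11. Arm ratios are log2 of 5p over 3p counts with 0.5 counts added to each arm, so a positive value means more 5p. Among the 155 hairpins with at least 1000 counts in each library, 85 gave more 5p and 70 more 3p. The counts of the arms were mostly far apart: 115 hairpins were over 10-fold one way (64 to 5p, 51 to 3p), 64 were over 100-fold, and 16 were within 2-fold.

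The marker hairpins gave mainly 5p. miR-9a gave 3619201, 4151195 and 3935858 counts of 5p in libraries 4, 5 and 6 against 87289, 85031 and 81833 of 3p, a log2 ratio of 5.52 ± 0.13. Its 3p strand still ranked 22 of all miRNAs, at 6943 ± 545 CPM. miR-10a had a log2 ratio of 6.52 ± 0.11 and miR-10b of 5.53 ± 0.16. miR-218a gave 227191, 247473 and 259864 counts of 5p and 34, 30 and 45 of 3p (12.72 ± 0.25). In the other direction, miR-127 gave 7174, 8167 and 8006 counts of 5p and 278851, 292921 and 269670 of 3p (-5.17 ± 0.10), and miR-126a gave a ratio of -4.95 ± 0.08.

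The arms of 6 hairpins were nearest to balance, and the sequences of 2 of them show that each arm brings its own seed.
miR-140-5p: cAGUGGUUuuacccuaugguag
miR-140-3p: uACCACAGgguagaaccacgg
miR-199a-5p: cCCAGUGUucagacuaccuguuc
miR-199a-3p: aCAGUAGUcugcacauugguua

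miR-140, a hairpin of cartilage, gave 4649, 4759 and 4694 counts of 5p and 4632, 5136 and 4570 of 3p in libraries 4, 5 and 6 (log2 ratio -0.02 ± 0.08). miR-199a, of mesenchyme, gave 20971, 26313 and 26006 counts of 5p and 24242, 26401 and 23588 of 3p (-0.02 ± 0.18). In both, the higher arm changed from library to library. The others were miR-30e (0.06 ± 0.09), miR-493 (-0.08 ± 0.23), miR-539 (-0.14 ± 0.16) and miR-674 (-0.15 ± 0.20), each also with a change of the higher arm. miR-493 and miR-539 belong to the imprinted Dlk1-Dio3 region.

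At the extremes, an arm was hardly counted. Toward 5p, miR-100 gave 255380, 292944 and 298814 counts of 5p and 2, 0 and 5 of 3p in libraries 4, 5 and 6, and let-7g gave 167825, 180290 and 169435 of 5p and 8, 20 and 23 of 3p. The 3p arms of miR-149 and miR-185 had no count, so their 5p arms were at least 12494-fold and at least 10785-fold higher, against a limit of 3 counts over the 3 libraries together. Toward 3p, the 5p arms had no count for miR-103 (at least 90619-fold lower than 3p), miR-328a (at least 21324-fold), miR-101b (at least 8655-fold) and miR-320 (at least 8050.0-fold), against the same limit. In all, 9 of the 155 hairpins had an arm at 0 in every library. The limits above cover counting error only, since how reads were assigned to these rows is not given.

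Hairpins of 1 family did not always have more counts on the same arm. miR-181a, miR-181b and miR-181d gave mainly 5p, with log2 ratios of 4.41 ± 0.18, 7.80 ± 0.47 and 10.72 ± 0.22. miR-181c, whose hairpin lies beside that of miR-181d on chromosome 19, gave 1863, 1849 and 1828 counts of 5p against 14052, 17384 and 16833 of 3p in libraries 4, 5 and 6 (-3.12 ± 0.18). These 4 hairpins, and miR-124 and miR-434 below, were singled out after their values were seen. The neuronal hairpin miR-124 gave 8535, 12009 and 10752 counts of 5p and 29259, 23728 and 24906 of 3p, so its ratio was -1.78 in library 4, -0.98 in library 5 and -1.21 in library 6. miR-434 leaned to 3p in library 4 (-0.15) and to 5p in libraries 5 and 6 (0.30 and 0.36). In 89 hairpins, every library had at least 1000 counts over both arms and at least 100 on each arm. Over these, the median SD of the log2 ratio was 0.12 and the largest 0.47, that of miR-181b.

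**Figure D3:**
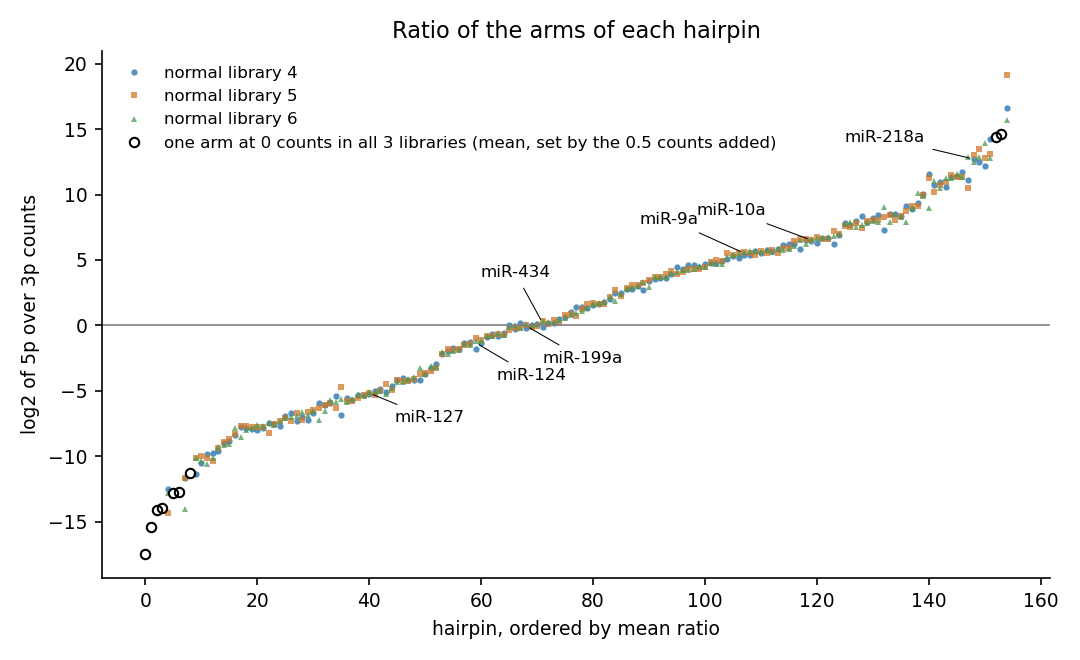
Log2 of 5p over 3p counts for the 155 hairpins with at least 1000 counts in each normal library, ordered by mean, 1 point per library. Open circles are the 9 hairpins with an arm at 0 counts, whose height is set by the 0.5 counts added. Of these hairpins 115 are over 10-fold one way, miR-199a and miR-434 lie at the crossing, and miR-218a stands at 12.72.

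Lists of miRNAs with known tissue or cell type expression were summed (both arms) to place the profile. The neural progenitor list, miR-9a and miR-9b, summed to 321559, 329509 and 326180.0 CPM in libraries 4, 5 and 6, or 32.6% of the counts, nearly all of it miR-9a-5p. The neuron list of 23 rows summed to 29495, 28879 and 27843 CPM (2.87%), all 23 rows with a count in every library. It was led by miR-7a-5p and miR-128-3p. miR-124-3p, the best known neuronal miRNA, came after them with 2538, 1846 and 2022 CPM and rank 50, highest in library 4. The motor neuron list summed to 20022 ± 963 CPM, all but a few CPM of it miR-218a-5p, with miR-218b at 0.

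The miRNAs of the Hox clusters made up 13.0% of the counts, with 127428, 131039 and 130640.0 CPM in libraries 4, 5 and 6. All 11 rows were counted in every library. miR-10a-5p gave most of this sum, followed by miR-10b-5p (21642 CPM) and by miR-196a-5p, whose hairpins lie toward the posterior end of the clusters, with 1821, 1514 and 1419 CPM. The oligodendrocyte list summed to 2917 ± 128 CPM. Its sum came mainly from miR-219a-2-3p, with 2511, 2724 and 2723 CPM, then miR-219a-1-3p (157 ± 17.4) and miR-338-5p (91.1 ± 12.2). The other arms were low, with miR-219a-5p at 12.3 ± 1.47 CPM and miR-338-3p at 1.75 ± 0.247.

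The list of sensory neurons and cilia, the miR-183/96/182 cluster, varied more. miR-182 had 4694, 6491 and 4546 CPM in libraries 4, 5 and 6, miR-183-5p 2064, 2586 and 1891, and miR-96-5p 603, 834 and 643. All 3 were highest in library 5, and the list's sum had a CV of 19.2%. These hairpins lie together on chromosome 4 at 59752246 to 59756153 (minus strand). The list of multiciliated cells, led by miR-34c-5p (271 ± 17.9 CPM), miR-34a-5p (19.7 ± 4.19) and miR-34b-3p (8.27 ± 0.941), summed to 306 ± 17.2 CPM.

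Markers of other cells that a dissected cord can hold were also counted. The endothelial list summed to 10548 ± 281 CPM, with miR-126a-3p in front of miR-126a-5p (330.2 ± 16.6) and miR-126b at 0. Smooth muscle summed to 8887 ± 451 CPM, with miR-143-3p in front of miR-145-5p (213 ± 19.3) and miR-143-5p (44.7 ± 3.02). Mesenchyme and cartilage summed to 4838 ± 78.6 CPM, with miR-199a-3p at 2024 ± 97.5, miR-199a-5p at 1992 ± 153 and miR-140-3p at 391 ± 17.2. These 3 lists had CVs of 2.66%, 5.08% and 1.62%, so the 3 libraries held them at like levels.

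Skeletal muscle, epithelium and liver markers differed among libraries. Of the 12 rows of the skeletal muscle list 6 were counted in every library. The list summed to 238, 124 and 169.5 CPM in libraries 4, 5 and 6. Its highest row, miR-499-5p, had 132, 94.6 and 102 CPM. miR-206-3p, which is specific to skeletal muscle, had 74.9, 14.9 and 49.8 CPM. miR-1-3p had 185, 71 and 121 counts, a mean of 10.5 CPM. Each of the 3 was highest in library 4 and lowest in library 5, while miR-133a-3p, at 11.1, 6.69 and 5.76 CPM, was lowest in library 6. The epithelial list, with 9 of 14 rows counted in every library, summed to 118, 177 and 139 CPM and was highest in library 5, with miR-203a-3p at 81.5, 117 and 101 CPM, miR-205 at 17.3, 33.0 and 18.8, and miR-200a-3p at 6.68, 10.3 and 6.58. miR-122-5p, the liver miRNA, had 197, 16 and 24 counts, or 17.1, 1.24 and 1.95 CPM, and was highest in library 4, like the muscle miRNAs. Whether neighbouring tissue contributed to these values was not tested.

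Immune and blood markers were low or at 0. The immune list, with 10 of 12 rows counted in every library, summed to 1192 ± 58.2 CPM, carried by miR-146b-5p (664 ± 42.0), miR-146a-5p (429.9 ± 42.4) and miR-150-5p (80.8 ± 9.32), while the leukocyte miRNAs miR-223-3p and miR-142-3p stood at 2.14 ± 0.618 and 0 CPM. The 4 rows of the blood list, both arms of the erythroid miR-144 and miR-451, had 0 counts in all 3 libraries, and miR-142 and these lie in a block of the genome taken up below. The early embryo list, of a mouse stem cell cluster, summed to 5.63 ± 1.03 CPM, with miR-293-5p at 3.57 ± 1.22, miR-292-5p at 1.14 ± 0.278 and miR-295-3p at 0.459 ± 0.195.

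Growth and imprinting related clusters were broadly counted. The Dlk1-Dio3 imprinted region, whose miRNAs are made from the maternal chromosome, summed to 72821, 67420.3 and 65202 CPM in libraries 4, 5 and 6, or 6.85% of the counts. Of its 89 rows, 83 were counted in every library and 61 reached 10 CPM in each. miR-127-3p led them, followed by miR-379-5p (4369 ± 295) and miR-434-5p (4061 ± 102). The list of the miR-17/92 and miR-106b clusters, known from proliferating cells, summed to 13872 ± 749 CPM, with miR-25-3p at 3301 ± 267, miR-93-5p at 2457 ± 136 and miR-20a-5p at 2343 ± 147. The let-7 list, both arms, summed to 82439 ± 2609 CPM, and the list of miR-99, miR-100 and miR-125 to 168943 ± 5410.2. The miR-29 and miR-30 list summed to 18885 ± 440.1 CPM, led by miR-30c-5p (6088 ± 418), miR-30d-5p (5589 ± 239) and miR-30a-5p (4938 ± 96.5).

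The CVs of the smaller lists below ran from 2.94% (miR-15/16) to 6.83% (miR-221 and miR-222). The X-linked miR-322 cluster summed to 2208 ± 71.8 CPM, led by miR-450a-5p (697 ± 15.9), miR-351-5p and miR-450b-5p (417 ± 9.61). The miR-15/16 list summed to 515 ± 15.1 CPM, with miR-16-5p, abundant in most adult tissues, at 417 ± 15.8 CPM and rank 130, then miR-15b-5p (59.9 ± 2.24) and miR-497-5p (12.8 ± 2.04). The list of miR-221 and miR-222 summed to 405 ± 27.7 CPM, nearly all miR-221-3p (389.7 ± 25.8). The hypoxia miRNA miR-210-3p stood at 149.5 ± 5.84 CPM.

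**Figure D4:**
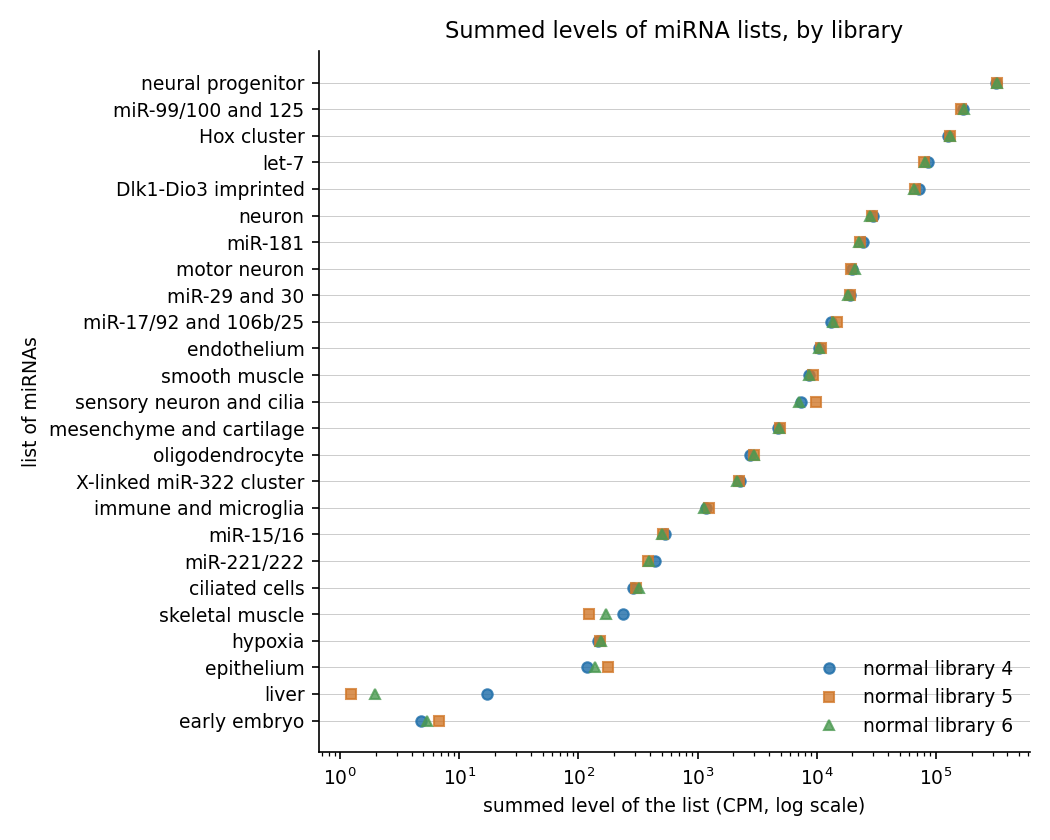
Summed level in CPM (log scale) of each miRNA list with a count, 1 point per normal library. Neural progenitor, miR-99/100 and miR-125, and Hox lists stand at the top, and the points of the 3 libraries part visibly for the skeletal muscle, epithelium and liver lists.

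Hairpins that lie within 10 kb of each other on 1 strand (GRCr8) did not share 1 level. In the cluster on chromosome 1 at 67350064 to 67350759 (plus strand), miR-99b-5p had 12774 CPM, miR-125a-5p 7521 and let-7e-5p 1434, a range of 8.90-fold between the highest and the lowest. The miR-182, miR-96 and miR-183 hairpins spanned 7.56-fold. In the cluster on chromosome 17 at 1818669 to 1819482 (minus strand), miR-27b-3p had 6102 CPM and miR-23b-3p 116, a range of 52.5-fold. On chromosome 6, the 9 hairpins from Mir770 to Mir136 at 134298084 to 134331416 (plus strand) spanned 1986-fold, from miR-127-3p at the top to miR-770-5p at 11.6 CPM. These clusters were picked with their values in view.

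The rows at 0 were not spread evenly along the genome, a pattern noticed after the values were seen. Of 403 reference hairpins with a listed row, 74 (18.4%) had every row at 0 in the 3 normal libraries. The longest run of neighbouring hairpins at 0 was on chromosome 10, where 10 consecutive hairpins between 63459397 and 73055190, a stretch of 9.60 Mb, had none: Mir144, Mir451a, Mir193a, Mir193, Mir365b, Mir632, Mir6327, Mir21, Mir301a and Mir142. The next longest run held 4 hairpins. The 16 rows of the block had 0 counts in the normal libraries and 6 counts in total in the other 3 miRNA libraries of the series. Its neighbours were counted: Mir423, which ends at 62412350, gave miR-423-5p at 446 CPM, and Mir196c, which starts at 81727551, gave miR-196c-5p at 33.5 CPM. The block holds miR-21, which most tissues express, and the blood and leukocyte miRNAs above, so their zeros do not stand apart from the zeros of their neighbours. The cause was not tested.

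The 3 libraries were close to each other. Among the 338 miRNAs with a mean of at least 10 CPM, the median CV was 6.90%, against a median of 2.25% from counting alone. The CV was under 10% for 227 miRNAs, under 5% for 105 and over 20% for 17, and 43 had a CV no larger than counting gives. For levels of 10 to 100 CPM the median was 9.55% (counting 5.21%), for 100 to 1000 CPM 6.42% (1.44%), and from 1000 CPM up 5.46% (0.506%). The common biological coefficient of variation from edgeR was 0.103.

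Library 4 stood somewhat apart. The median size of the log2 ratio between libraries was 0.14 for libraries 4 and 5, 0.14 for 4 and 6, and 0.09 for 5 and 6. Library 4 was farthest from the middle value for 173 of the 338 miRNAs, library 5 for 89 and library 6 for 76. Without library 4 the median CV was 4.26% and the biological coefficient of variation 0.0774. These values were 6.85% and 0.0962 without library 5, and 6.98% and 0.129 without library 6. Across miRNAs, which are not independent replicates, the log2 levels of the pairs of libraries had Pearson correlations of 0.995 to 0.998.

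The miRNAs that varied most were few and mostly of low level. miR-206-3p had the largest CV, 64.8%, with the values given above. miR-410-5p had 5.12, 18.5 and 9.58 CPM in libraries 4, 5 and 6 (61.6%), while its other arm, miR-410-3p, had 588, 489 and 479. miR-1-3p (50.6%), miR-205 (37.7%), miR-376a-3p (31.1%), miR-667-5p (27.6%), miR-6329 (27.2%), miR-6325 (26.7%), miR-27a-5p (26.2%) and miR-27b-5p (23.3%) completed the 10 most variable catalogue miRNAs. Among abundant miRNAs, miR-27b-3p, singled out after its values were seen, had 4578 CPM in library 4 against 6858 and 6871 in libraries 5 and 6. miR-24-3p was also lowest in library 4, at 928 CPM against 1154 and 1138. It is encoded beside miR-27b on chromosome 17 and beside miR-27a on chromosome 19, so its counts cannot be assigned to 1 cluster.

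The steadiest were miR-431 (CV 0.332%), with 261, 262 and 260.4 CPM in libraries 4, 5 and 6, miR-423-5p (0.798%), miR-326-3p (0.900%), miR-30a-3p (1.05%) and miR-340-5p (1.14%). The CVs of the first 4 were below their counting CVs, and that of miR-340-5p was above its own (0.409%).

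**Figure D5:**
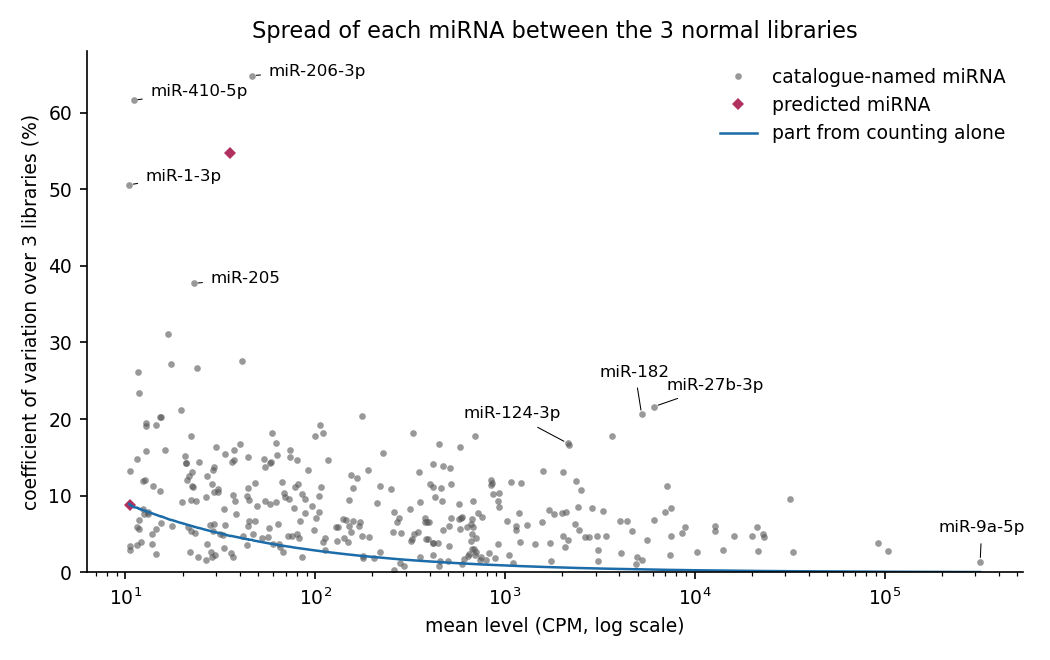
Coefficient of variation over the 3 normal libraries (%) against mean level (CPM, log scale) for the 338 miRNAs with a mean of at least 10 CPM, with the part that counting alone gives as a line. Most points lie above the line and under 10%, and miR-206-3p, miR-410-5p and miR-1-3p stand at 64.8%, 61.6% and 50.6%.

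The predicted miRNAs held 0.0177%, 0.0220% and 0.0208% of the counts in libraries 4, 5 and 6. The highest was predicted miRNA 26 with 17.6, 56.3 and 32.9 CPM, lowest in library 4 and highest in library 5, and the next were predicted miRNA 47 (10.5 ± 0.924 CPM) and predicted miRNA 56 (7.93 ± 1.19). Of the 79 with a count, 43 had in every library the same counts as another predicted row, in 15 sets of up to 5 rows, so these rows are not independent measurements.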

How the data were processed

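Small RNA libraries of 3 normal cords were taken from a table of 6 miRNA libraries, with columns matched to replicates 4, 5 and 6 by their short names. The authors deposited whole-number counts per miRNA and, per the file headers, TPM values. These TPM values equalled the CPM over all rows to within 4.64e-04 and were not used further. The mouse build mm10 and the tools Cuffdiff, Cufflinks 2.1.1, TopHat2 2.0.9 and CASAVA 1.8 were named for these rat samples, per the submitters' processing notes. How reads were trimmed, assigned to miRNAs and used for prediction is not given in these sources. Collapsing of PCR copies is not given either, so floors and intervals cover counting error only.

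CPM, CV, seed families (bases 2 to 8), arm ratios (0.5 counts added) and list sums were computed in Python 3.11.15 with pandas 2.3.3 and numpy 2.4.6. The counting CV is that of Poisson counts at the mean level. TMM and RLE scaling and the common dispersion came from edgeR 4.0.16 in R 4.3.3. With 1 group there was no contrast and no test. The scripts were tested on simulated data. Depth is in the report. Sequences and hairpin positions are RefSeq's, on GRCr8.

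The libraries, members and lists were chosen with earlier results of these data known. The text names the 3 markers, the 20 highest miRNAs, the 3 highest of each list, family members of at least 100 CPM in the 8 largest families, and the hairpins and miRNAs at the extremes of arm ratio (at least 1000 counts) and CV (at least 10 CPM), with the 3 highest predictions. Other names were chosen after their values were seen, as marked or where they illustrate a list, a 1-base pair or a list's zeros. Alternatives were other totals, thresholds, seeds, added counts and 1 library left out.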

Additional observations from a re-analysis of the deposited data

How the results depend on the processing

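Of 34 alternatives to the main summary values, 6 moved the value, by more than its SD or interval or, for a count, by over 1.5 times. Leaving out 1 library could not move the shares of miR-9a-5p, the largest seed family or the 10 most abundant. These are means over the 3 libraries, set against the SD of the same libraries. The shares of miR-9a-5p and of the largest family are also the same value, so 6 of 34 is no measure of stability. Without miR-9a-5p the 10 most abundant remaining miRNAs held 56.6% of the counts, against 68.8%. The number of miRNAs above the threshold in every library was 185 at 100 CPM, against 332 at 10 CPM, 481 at 1 CPM, and 331 with TMM-scaled totals or RLE size factors. The share of hairpins with the higher 5p arm was 50.8% at a minimum of 1 count and 53.4% at 100, against 52.5%. The median CV was 9.50% for miRNAs of at least 1 CPM and 5.98% from 100 CPM, against 6.90%. Leaving out 1 library at a time gave 31.7% to 32.1% for miR-9a-5p and for the largest seed family, 68.5% to 69.0% for the 10 most abundant, 333 to 334 miRNAs at 10 CPM, 51.9% to 53.0% for the 5p share, and 4.26% to 6.98% for the median CV, lowest without library 4. Seeds of bases 2 to 7 left the largest family at 31.9%. Without miR-9a-5p the share of the neural progenitor list was 1.02%, against 32.6%, and those of the other lists were up to 1.47-fold higher, since the total then lacks its largest row. All 75 list sums with 1 library left out stayed within 1 SD, but this was fixed in advance. A mean of 3 values cannot move past their SD when 1 of them is dropped, so no stability is read from it. Of 56 alternative arm ratios 49 stayed within 1 SD, which was likewise fixed for those with 1 library left out. Only the ratios with 5 counts added could move. The 7 that moved were among these, all of hairpins with an arm at or near 0. The balanced hairpins miR-140 and miR-199a changed sign, to 0.02 without library 5 and to 0.07 without library 4, against -0.02 for both. No paired analysis was possible because the values come from 1 group and from no test. Depth limits rows at 0 to about 0.26 CPM or less, and 3 libraries of unknown litters limit every SD.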

Other observations

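Pairs of hairpins that RefSeq places within 10 kb on 1 strand gave further values. Mir25 and Mir93, on chromosome 12, gave miR-25-3p at 3301 CPM and miR-93-5p at 2457, a 1.34-fold range. Mir100 and Mirlet7a-2, on chromosome 8, gave miR-100-5p at 23067 CPM and let-7a-5p at 4037, though let-7a-5p has another copy in the genome table. In the miR-17/92 cluster on chromosome 15, miR-20a-5p (2343 CPM) and miR-18a-5p (67.3) were 34.8-fold apart. Between Mirlet7f2 and Mir98 on the X chromosome, let-7f-5p had 3107 CPM and miR-98-5p 0 counts, with let-7f-5p also encoded elsewhere. In all, 25 hairpins with both arms listed had both at 0 in the 3 libraries, and of the 174 rows without a count 137 were also at 0 in the other 3 miRNA libraries.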
